A study of Rattus norvegicus with 6 samples.

Results

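The effect of interference sequence 3 was examined in libraries described as rat vascular smooth muscle cells (VSMCs), which form the contractile layer of arteries. Sequence 3 is directed against SLC2A10, the gene of glucose transporter GLUT10. The comparison used 4 of the 6 libraries of the series, namely 2 libraries titled for sequence 3 and 2 titled as controls, and they were chosen by title alone. The other 2 libraries carry interference sequence 2 and served to estimate the spread and for a direct comparison of the sequences. Of 13685 loci with a transcript start or end in the 6 libraries, 13201 were listed in these 4 libraries and 10394 reached an FPKM of 1 in at least 2 of them and were tested. FPKM is a fragment count divided by transcript length and by the size of the library.

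GLUT10 belongs to the facilitative glucose transporters, and loss of its gene in people causes arterial tortuosity syndrome, a disease of large arteries. In RNA interference a short hairpin RNA is cut by Dicer, and the resulting strand guides the silencing complex to matching transcripts. Each interference sequence can also touch transcripts other than its target, which is the usual reason for using more than 1 sequence.

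All 4 libraries are from the SD rat strain with the tissue given as aorta. The control libraries are labelled wild type and the sequence 3 libraries SLC2A10-/-, although the paper describes knockdown by shRNA virus against a control virus in cultured cells, and the titles speak of siRNA. The protocol names flash-frozen aorta, so the sources disagree on whether RNA of tissue or of cultured cells was read, and the design text speaks of mice where the samples are given as rat. The labels say neither whether the replicates came from separate cultures nor the age of the animals, so p-values measure only the spread between libraries, which may be technical. The numbers 2 and 3 of the sequences and the replicate numbers were read from the titles. The Ensembl gene IDs of the loci could be paired with a gene symbol for 0 of 12224 IDs. SLC2A10 itself, the smooth muscle markers and all pathway lists were therefore not analysed here, and every direction rests on the library titles. Loci are given by ID and by position as the files list them. For the genome build, nothing is given in the sources used here. In bulk RNA, fewer cells of a type and less RNA per cell cannot be told apart.

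The libraries listed between 11564 and 11837 loci each. Replicate 2 of sequence 3 was the poorest in transcript starts (12837, where the other 3 libraries had 13464 to 13778), and had 1115 loci with an end but no start, against 785 to 839. It correlated with replicate 1 of sequence 3 at 0.954 across the tested loci (Pearson's r of log2 levels, a description over loci that share 2 libraries), whereas the controls correlated at 0.969. With replicates 1 and 2 of sequence 2, replicate 1 of sequence 3 correlated at 0.972 and 0.967, and replicate 2 of sequence 3 at 0.961 and 0.950. By this measure each sequence 3 library lay closer to a sequence 2 library than to its own replicate. Between the sequence 3 libraries 520 loci differed by more than 1 on the log2 scale, against 317 between the controls. The counts of called loci are also given without replicate 2 of sequence 3.

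With sequence 3, 457 loci differed from the controls at an adjusted p under 0.05 from limma (4.4% of the 10394 tested), of which 261 were lower (2.51%) and 196 were higher (1.89%). The falls were deep. Among the 194 lower loci that were listed in both sequence 3 libraries, the level dropped to a median of 24.9% of the control mean, a median log2 fold change of -1.74. A further 45 lower loci were listed at 0 in both sequence 3 libraries and 22 in 1 of them. The rises were shallower, with a median log2 fold change of 1.01 among the 184 higher loci that were listed in both controls. Among the called loci, falls of at least 4-fold on the log2(FPKM + 1) scale numbered 139 (1.34% of the tested loci) and rises of that size 14 (0.135%). In a separate fit over loci listed in all 4 libraries these were 86 and 7, among 198 lower and 191 higher loci.

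The lower loci together held 6.95% and 6.60% of the summed FPKM of the tested loci in the control libraries, and 0.999% and 0.926% in the sequence 3 libraries. The higher loci held 2.47% and 2.59% in the controls and 5.31% and 5.41% with sequence 3. Because the loci were picked by their change, these shares only describe them. Of the lower loci, 71 had no sequence 3 library at an FPKM of 1 and passed the filter through the controls, and 17 higher loci passed it through the sequence 3 libraries, so these loci had to differ.

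The counts moved with single libraries. Without control replicate 1 there were 138 lower and 32 higher loci, and without control replicate 2 there were 147 and 31. Without replicate 2 of sequence 3 there were 239 lower and 92 higher, and without replicate 1 or 2 of sequence 2 there were 73 or 74 higher. Falls of at least 4-fold ranged from 120 to 169 when 1 library was left out, and rises of that size from 12 to 19, with 151 and 14 without replicate 2 of sequence 3. The median log2 change of all tested loci was 0.115 as deposited, and 62.9% of them lay above 0. Both sequence 3 libraries lay above both controls at 37.4% and below both at 16.2% of the tested loci, and at all 457 called loci the groups did not overlap.

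**Figure D1:**
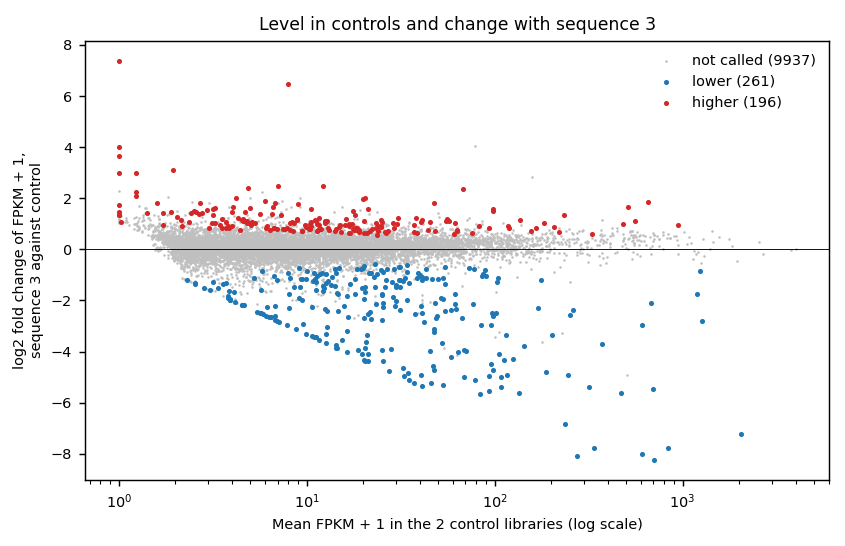
Each point is 1 of 10394 tested loci, with the mean FPKM + 1 of the 2 control libraries on the horizontal axis (log scale) and the log2 fold change of FPKM + 1 with sequence 3 on the vertical axis. The 261 lower loci (blue) reach -8.23 and are found up to the highest levels, whereas most of the 196 higher loci (red) lie near 1, and the slanted lower edge holds loci listed at 0 with sequence 3.

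Falls were more frequent among abundant loci. Of the 500 tested loci with a control mean over an FPKM of 100, 7% were lower and 3% higher. Of the 2142 loci between 20 and 100, 5.14% were lower and 1.96% higher, and of the 4075 loci between 5 and 20 the shares were 2.16% and 1.87%. Among the 3302 loci between 1 and 5, only 0.848% were lower and 1.36% were higher. Of the 375 loci with a control mean under 1, 0 were lower and 4.8% higher. Such loci needed a sequence 3 library at an FPKM of 1 to pass the filter. Low loci are harder to call lower on the log2(FPKM + 1) scale, because their distance to 0 is short. The control libraries define the classes and also enter the test, so the shares are a description.

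The 12 largest falls among loci with an Ensembl ID began from control levels between 71.6 and 2105 FPKM, and no sequence 3 library exceeded 16.6 FPKM at any of them. The first was XLOC_009883 (ENSRNOG00000001959), on chromosome 11 from 37891156 to 37914983 on the minus strand. Its FPKM was 760 and 651 in the controls and 1.43 and 1.26 with sequence 3, a log2 fold change of -8.23 (standard error 0.133, adjusted p = 1.29e-05 from limma). The second was XLOC_017596 (ENSRNOG00000059900), on chromosome 16 from 19938784 to 19942343. It stood at 255 and 290 FPKM in the controls and was listed at 0 in both sequence 3 libraries (adjusted p = 1.29e-05 from limma). The groups did not overlap at either locus, and the replicates of each group lay close together. The remaining loci described here go beyond the first 2 falls and first 2 rises that the naming rule provides when no symbols are available, and were chosen after their values were seen.

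Neighbouring loci were prominent among the large falls. On chromosome 11, XLOC_009374 (ENSRNOG00000001963), from 38034794 to 38035588 and close to XLOC_009883, had an FPKM of 339 and 337 in the controls, was listed at 0 in replicate 1 of sequence 3 and had 1.40 in replicate 2. On chromosome 6, XLOC_038616 (ENSRNOG00000007539), from 45655954 to 45669148, had 634 and 581 FPKM in the controls and 1.32 and 1.42 with sequence 3. Its neighbour XLOC_037781 (ENSRNOG00000007690), from 45683234 to 45694822 on the other strand, had 247 and 227 FPKM in the controls and 1.01 FPKM in replicate 1 of sequence 3, with replicate 2 close to it. In each of these pairs both loci kept under 2 FPKM. The log2 fold changes of XLOC_038616 and XLOC_037781 were -8.00 (standard error 0.153) and -6.84 (standard error 0.146).

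On chromosome 1 a further pair fell. XLOC_001940 (ENSRNOG00000019050), from 252906234 to 252940608, had 873 and 799 FPKM in the controls and 3.23 and 2.53 with sequence 3, a log2 fold change of -7.76 (standard error 0.142, adjusted p = 1.29e-05 from limma). Next to it XLOC_001939 (ENSRNOG00000036604), from 252894663 to 252900726, fell from 748 and 641 FPKM to 16.6 and 13.1, a log2 fold change of -5.46 (standard error 0.150). Both spans lie within XLOC_004160 on the other strand, which carries the ID of XLOC_001940 and had 23.6 and 21.1 FPKM in the controls and 15.6 and 13.5 with sequence 3. Elsewhere on the chromosome, XLOC_003794 (ENSRNOG00000017414), from 214249363 to 214252959, fell from 473 and 467 FPKM to 8.85 and 8.19.

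Single falls without a fallen neighbour within 200 kb also reached this size. XLOC_032208 (ENSRNOG00000037198), on chromosome 4 from 153805911 to 153834430, fell from 136 and 131 FPKM to 1.31 and 2.19. This is a log2 fold change of -5.63 (standard error 0.185), with an adjusted p of 7.75e-05 from limma. The 12 loci together had adjusted p values between 1.29e-05 and 0.00269 from limma. XLOC_009374 had starts only and no end in any library, so its fall could not be tested on ends. It, XLOC_017596 and XLOC_032535 were also not tested over loci listed in all 4 libraries. Among the settings in which each of the 12 was tested, a call was lost only at XLOC_032535 on chromosome 4, which had 92.8 and 71.6 FPKM in the controls and 1.72 and 0 with sequence 3, and whose adjusted p from limma was 0.0633 without control replicate 1 and 0.0525 without control replicate 2.

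**Figure D2:**
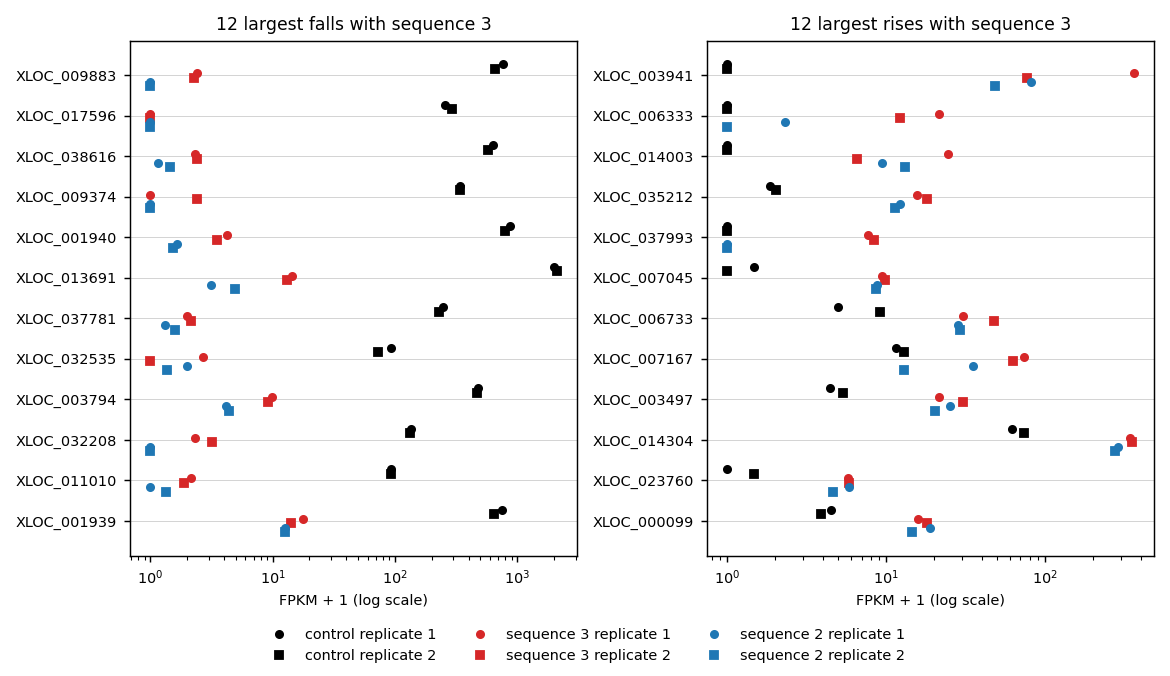
FPKM + 1 on a log scale in each of the 6 libraries, 1 point per library, for the 12 loci with the largest falls (left) and the 12 with the largest rises (right) with sequence 3 among loci with an Ensembl ID. At the falls both sequence 3 libraries (red) lie far below both controls (black), and XLOC_003941 shows the widest gap between the sequence 3 libraries among the rises.

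Some lower loci lay close together along the chromosomes. A run was defined as at least 3 lower loci, each beginning within 200 kb of the end of the loci before it. There were 14 such runs with 55 loci, or 21.1% of all lower loci, which is a description with no test. The 55 loci carry 49 distinct Ensembl IDs, and 4 have none. In 9 of the 14 runs every tested locus within the span was lower, and no run held a locus that was higher. Runs were built from lower loci and bounded by them, which favours full runs. The rest lay on chromosomes 15 and 20, with as few as 3 lower of 20 tested loci in 1 run. Of the 55 loci, 15 were listed at 0 in both sequence 3 libraries and 15 overlapped a tested locus on the other strand. No source used here states that the libraries keep strand, so reads of such overlapping loci cannot be told apart, and neighbouring loci can be pieces of 1 gene. When 1 library was left out, 42 to 54 of the 55 loci were called, with 51 called without replicate 2 of sequence 3. Over loci listed in all 4 libraries 34 were called.

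The longest run by number of loci lay on chromosome 2 from 248178389 to 248690580, where all 7 tested loci fell. The highest was XLOC_023777 (ENSRNOG00000031743), with 332 and 300 FPKM in the controls and 6.99 and 6.21 with sequence 3, a log2 fold change of -5.38 (standard error 0.119, adjusted p = 2.22e-05 from limma). XLOC_023774 (ENSRNOG00000032240) fell from 97.4 and 87.1 FPKM to 2.22 and 1.80. XLOC_023775 (ENSRNOG00000029191) fell from 103 and 86.7 FPKM to 3.33 and 3.07. The fall was smallest at the far end of the run, where XLOC_023784 (ENSRNOG00000043426) kept 3.50 and 3.16 FPKM of 10.7 and 12 FPKM, a log2 fold change of -1.51 (standard error 0.141). The 7 loci summed to 599 and 533 FPKM in the controls and to 16.5 and 14.2 with sequence 3.

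A run of 4 on chromosome 12, from 41155485 to 41369261, took in loci on both strands. XLOC_011010 (ENSRNOG00000001369) fell from 91.4 and 92.4 FPKM to 0.891 FPKM in replicate 2 of sequence 3 and slightly above 1 in replicate 1. XLOC_011508 (ENSRNOG00000033220) fell from 63.2 and 72.7 FPKM to 1.03 and 1.26. Of the other members, XLOC_011009 fell from 19.6 and 20.5 FPKM to 1.04 and 1.07, and XLOC_011013 was listed at 0 with sequence 3 after 6.47 and 5.82 FPKM in the controls. Thus all 4 loci ended near 1 FPKM or below, although they began at very different levels.

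The runs of 5 on chromosomes 13 and 18 were less even. On chromosome 13, from 91921242 to 92090141, XLOC_012933 (ENSRNOG00000003486) kept 16.1 and 17.8 FPKM of 83.6 and 119, whereas XLOC_012383 (ENSRNOG00000003480) was listed at 0 after 10.5 and 10.7. On chromosome 18, from 55463482 to 55704904, XLOC_020356 (ENSRNOG00000038960) fell from 113 and 117 FPKM to 3.31 and 2.45. In the same run XLOC_020358 (ENSRNOG00000019542) had 44.9 and 47.8 FPKM in the controls and with sequence 3 was listed at 0 in replicate 2 and far below the controls in replicate 1. The replicates of sequence 3 thus disagreed on whether XLOC_020358 was present, and its adjusted p from limma rose from 0.0129 to 0.142 and 0.126 without control replicate 1 and 2.

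Shorter runs of 3 lay on chromosomes 9, 10, 14, 15, 16 and 20. On chromosome 16, from 31187626 to 31342102, all 3 loci were listed at 0 in both sequence 3 libraries. The strongest of these, XLOC_017685, has no Ensembl ID and had 34.1 and 38.9 FPKM in the controls. On chromosome 15, from 38647469 to 38710034, the 3 loci share 1 Ensembl ID (ENSRNOG00000053891) across both strands and count as separate loci only in the assembly. A second run on chromosome 15, from 34256071 to 34288138, fell much less, with a median log2 fold change of -1.13.

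Chromosome 20 held the largest share of lower loci, 7.46% of 295 tested, while the other chromosomes ranged from 0.990% to 4.17%. Of its 22 lower loci, 16 formed 4 runs between 3146562 and 5618260. The stretch was bounded by the lower loci of these runs, which by itself raises the share inside it. Within it 16 of 79 tested loci were lower (20.3%) and 0 were higher, and outside it 6 of 216 were lower (2.78%). The abundant XLOC_026917 (ENSRNOG00000051235), from 4541481 to 4561062, fell from 372 and 371 FPKM to 29.4 and 26.4, a log2 fold change of -3.69 (standard error 0.124, adjusted p = 8.40e-05 from limma). XLOC_026367 (ENSRNOG00000000777) fell from 127 and 80.9 FPKM to 5.19 and 4.91. XLOC_026901 (ENSRNOG00000000459) fell from 64.9 and 66.6 FPKM to 8.60 FPKM in replicate 1 and 10 in replicate 2, and XLOC_026398 (ENSRNOG00000000455), which begins just after it, from 96.1 and 94.2 to 10.4 and 12.3. The depth of the falls varied widely within this stretch. XLOC_026957 (ENSRNOG00000038999) was listed at 0 in both sequence 3 libraries, whereas XLOC_026974 (ENSRNOG00000000485) kept 60.4% of its control mean. XLOC_026957 had 8.20 and 7.37 FPKM in the controls and overlaps XLOC_026455, a locus of the same ID on the other strand. XLOC_026455 was not called, with 18.4 and 23.4 FPKM in the controls and 19.4 and 25.7 with sequence 3.

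On chromosomes 14 and 10 a lower run was followed by a higher run, beyond the 200 kb allowed within a run. The gap between the runs was 1508 kb on chromosome 14 and 529 kb on chromosome 10. How often called falls and rises lie this far apart was not tested. On chromosome 14 a run of 3 lower loci from 17195014 to 17235872 was followed, after 10 tested loci of which 0 were called, by a run of 3 higher loci from 18743685 to 18862407. The lower run included the most abundant locus of the 12 largest falls, XLOC_013691 (ENSRNOG00000022256), with 1990 and 2105 FPKM in the controls and 13.3 and 12 with sequence 3. Its log2 fold change was -7.23 (standard error 0.219), with an adjusted p of 5.80e-05 from limma. In the higher run XLOC_014304 (ENSRNOG00000002843) rose from 61.2 and 73.0 FPKM to 344 and 350, a log2 fold change of 2.36 (standard error 0.124, adjusted p = 0.000343 from limma). XLOC_014300 (ENSRNOG00000002802) rose from 209 and 257 FPKM to 583 and 608. The 3 loci of the higher run summed to 290 and 357 FPKM in the controls and to 975 and 1012 with sequence 3.

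Lower loci also preceded higher ones on chromosome 10. From 70326157 to 71053191, 13 loci were tested, of which 5 were lower and 3 were higher. Between the run of 3 lower loci and the higher run lay 6 tested loci, and 2 of these, XLOC_007924 and XLOC_006728, were lower and stood directly before the higher run. XLOC_006716 (ENSRNOG00000057092) fell from 259 and 232 FPKM to 8.59 and 6.01, a log2 fold change of -4.91 (standard error 0.185, adjusted p = 0.000122 from limma). XLOC_006714 (ENSRNOG00000037113) fell from 178 and 159 FPKM to 33.7 and 33.4. At the other end XLOC_006732 (ENSRNOG00000037097) rose from 16.7 and 22.4 FPKM to 65.3 and 97.9, and XLOC_006733 (ENSRNOG00000029668) from 3.99 and 8.18 to 29.3 and 46.9. The rise of XLOC_006733 had an adjusted p of 0.0161 from limma, which became 0.0939 without control replicate 1 and 0.0667 without replicate 2 of sequence 3. Over the whole comparison higher loci formed 5 runs with 17 loci, or 8.67% of the 196 higher loci. These runs were not recomputed without replicate 2 of sequence 3, where only 92 loci were higher.

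**Figure D3:**
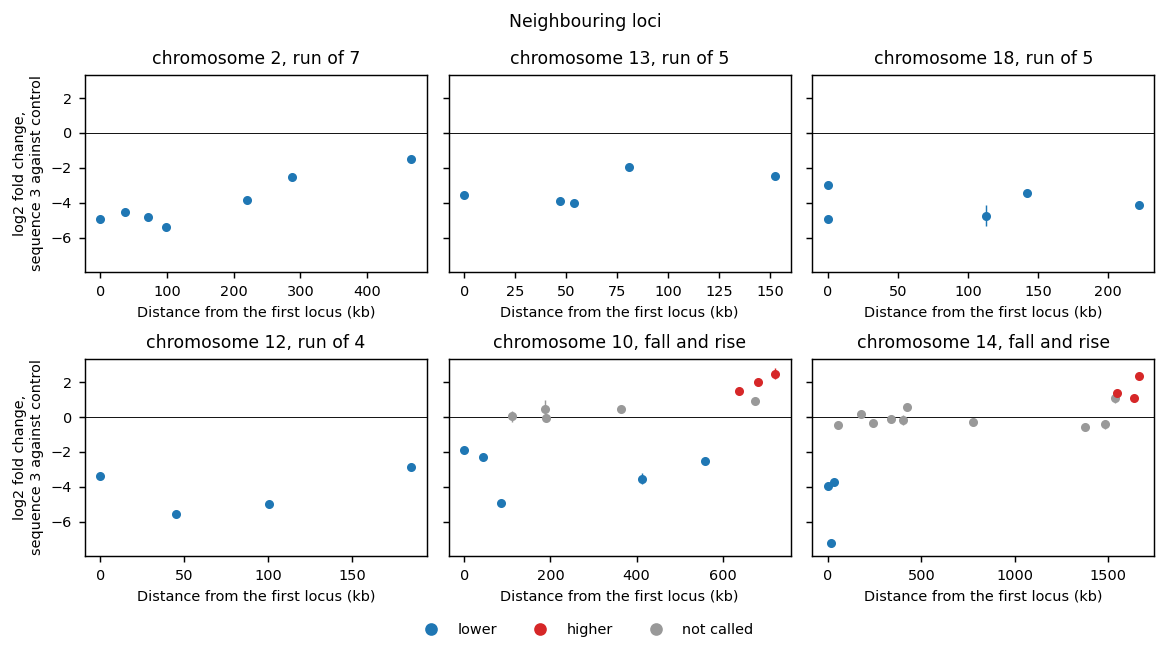
Log2 fold change with sequence 3 against control of the tested loci in 6 stretches, plotted by distance in kb from the first locus of the stretch, with bars for the standard error (smaller than the point where not visible). In the runs on chromosomes 2, 13, 18 and 12 every tested locus is lower (blue), and on chromosomes 10 and 14 lower loci are followed by higher loci (red). On chromosome 14 the 10 loci between the runs are not called (grey), and on chromosome 10 the 6 loci between include 2 lower ones. Lower runs in which some tested loci were not called, as on chromosome 20, are not shown.

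Among the 12 largest rises of loci with an Ensembl ID, several were at or near 0 in the controls, and some rested on how transcripts were listed. XLOC_003941 (ENSRNOG00000021125), on chromosome 1 from 222136571 to 222168190, was listed at 0 in both controls and had 363 and 75.8 FPKM with sequence 3 (adjusted p = 0.00411 from limma). It overlaps XLOC_001706 on the other strand, which had 39.9 and 50.0 FPKM in the controls and 66.6 and 96.3 with sequence 3. The summed starts of XLOC_003941 were 62.3 and 75.8 FPKM in the sequence 3 libraries, while its summed ends were 363 and 0. The high value of XLOC_003941 in replicate 1 thus came from the ends. The call was lost without control replicate 1 or 2, with adjusted p values from limma of 0.0794 and 0.0694. The next rise among loci with an Ensembl ID, XLOC_006333 (ENSRNOG00000012840), on chromosome 10 from 40742469 to 40744092, was listed at 0 in both controls and had 20.4 and 11.3 FPKM with sequence 3 (adjusted p = 0.00785 from limma). It had only an end in replicate 1 and only a start in replicate 2. It lies inside XLOC_007550, a locus of the same ID on the other strand that had 3812 to 4179 FPKM in these 4 libraries. Its call was lost without control replicate 1 or 2, with adjusted p values from limma of 0.102 and 0.0941.

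Other large rises had closely agreeing sequence 3 replicates. XLOC_035212 (ENSRNOG00000016945), on chromosome 5 from 157282669 to 157285328, rose from 0.861 and 1.01 FPKM to 14.6 and 17.0. Its log2 fold change was 3.11 (standard error 0.144), with an adjusted p of 0.000238 from limma, the smallest adjusted p among the 12 largest rises. XLOC_007045 (ENSRNOG00000003931), on chromosome 10 from 97722936 to 97863311, had 0.481 and 0 FPKM in the controls and 8.43 and 8.87 with sequence 3. With sequence 3 only ends were listed and no start, so its rise was seen on ends only. Its span overlaps XLOC_008268 on the other strand, which had 41.6 and 36.6 FPKM in the controls and 46.0 and 38.9 with sequence 3. XLOC_000099 (ENSRNOG00000013304), on chromosome 1 from 21525273 to 21537863, rose from 3.52 and 2.90 FPKM to 14.8 and 17.1, a log2 fold change of 2.01 (standard error 0.180, adjusted p = 0.00321 from limma). Its adjusted p from limma was 0.0561 without control replicate 2.

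At XLOC_003497 (ENSRNOG00000013591), on chromosome 1 from 174350597 to 174379566, starts and ends went opposite ways. The summed starts rose from 3.40 and 4.33 FPKM to 20.5 and 29.3, whereas the summed ends were 3.12 and 4.03 FPKM in the controls and were listed at 0 in both sequence 3 libraries. With the larger of both sums as the level, the log2 fold change was 2.40 (standard error 0.220) with an adjusted p of 0.00357 from limma, and the direction of this locus therefore depends on which events are read. Without control replicate 1 its adjusted p from limma was 0.065. The largest rise of a locus without an Ensembl ID was that of XLOC_009961, on chromosome 11 from 60679758 to 60728524, from 10.6 and 3.44 FPKM to 584 and 674, a log2 fold change of 6.45 (standard error 0.433).

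Abundant loci also rose, by smaller factors. XLOC_033388 (ENSRNOG00000005695), on chromosome 4 from 170856751 to 170860225, rose from 566 and 735 FPKM to 2059 and 2620, a log2 fold change of 1.85 (adjusted p = 0.00736 from limma). XLOC_029170 (ENSRNOG00000013973), on chromosome 3 from 11383422 to 11417546, rose from 421 and 597 FPKM to 1387 and 1838. XLOC_046300 (ENSRNOG00000015992), on chromosome 9 from 88918433 to 88921001, rose from 45.2 and 48.1 FPKM to 161 and 173, a log2 fold change of 1.82 (adjusted p = 0.000622 from limma). At all 3 loci replicate 2 of sequence 3 lay above replicate 1. Among all 196 higher loci this order held at 125, and replicate 1 lay above at 71. The share of all tested loci with this order was not computed, so it is not shown to be particular to the higher loci. The summed level of all listed loci was 326249 FPKM in replicate 1 of sequence 3 and 368014 in replicate 2. In the controls it was 298386 and 319652 FPKM.

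Sequence 3 was then set directly against sequence 2. At an adjusted p under 0.05 from limma 7 loci differed, 0.0673% of the 10394 tested. Of these, 3 were lower with sequence 3 and 4 were higher. The filter counted only the control and sequence 3 libraries, so a locus present with sequence 2 alone could not be tested. The split between lower and higher is therefore only a description. XLOC_023652 (ENSRNOG00000014333), on chromosome 2 from 219086006 to 219093027, had 12.4 and 11 FPKM in the controls and 9.47 and 11.9 with sequence 2, but was listed at 0 in both sequence 3 libraries (adjusted p = 0.0111 from limma). XLOC_020703, on chromosome 18 from 35679020 to 35908704 and without an Ensembl ID, had 11.2 and 8.08 FPKM in the controls, 10.2 and 9.86 with sequence 2 and was listed at 0 with sequence 3 (adjusted p = 0.0117 from limma). XLOC_014169 (ENSRNOG00000048308), on chromosome 14 from 2463643 to 2474780, had 3.86 and 7.11 FPKM in the controls, 7.91 and 8.16 with sequence 2 and was listed at 0 with sequence 3 (adjusted p = 0.0395 from limma). Of the 3 groups, these loci were listed at 0 only with sequence 3.

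Signal of sequence 3 alone was seen at XLOC_037993 (ENSRNOG00000006472), on chromosome 6 from 99433550 to 99433653. It had 6.67 and 7.42 FPKM with sequence 3 and was listed at 0 in the other 4 libraries (adjusted p = 0.0146 from limma). This locus passed the filter only through the sequence 3 libraries, and its counterpart with sequence 2 alone could not enter the test. Only a start and no end was listed. The remaining 3 loci, XLOC_036362, XLOC_048175 and XLOC_031429, were listed at 0 with sequence 2 only. Their change with sequence 3 against control did not pass the test, with adjusted p values from limma of 0.521, 0.0943 and 0.456. With sequence 3, XLOC_036362 had only a start in replicate 1 and only an end in replicate 2. XLOC_048175 had a start but no end in replicate 2 of sequence 3. At each of the 7 loci 1 sequence was listed at 0, and the levels elsewhere were at most 12.4 FPKM.

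These 7 calls were not firm. Without control replicate 1, control replicate 2 or replicate 2 of sequence 2 there were 0 such loci by limma, without replicate 1 of sequence 2 there was 1, and without replicate 1 or 2 of sequence 3 there were 10 or 9. At an unadjusted p under 0.05 there were 554. XLOC_023652 also overlaps 2 other loci of the same Ensembl ID. XLOC_024849 on the other strand had 395 and 434 FPKM in the sequence 3 libraries and 572 and 509 in the controls. XLOC_023653 on the same strand had 57.8 and 39.6 FPKM with sequence 3, 7.95 and 80.3 in the controls, and 41.9 and 6.61 with sequence 2, so its replicates differed widely. Another locus of this ID on the same strand, XLOC_023651, ends before XLOC_023652 begins. XLOC_023651 had 6.55 FPKM in replicate 1 of sequence 3 and was listed at 0 in all other libraries. XLOC_020703 overlaps XLOC_020704 on the same strand, which had 8.07 and 3.37 FPKM with sequence 3. The assignment of reads among these loci was not tested.

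**Figure D4:**
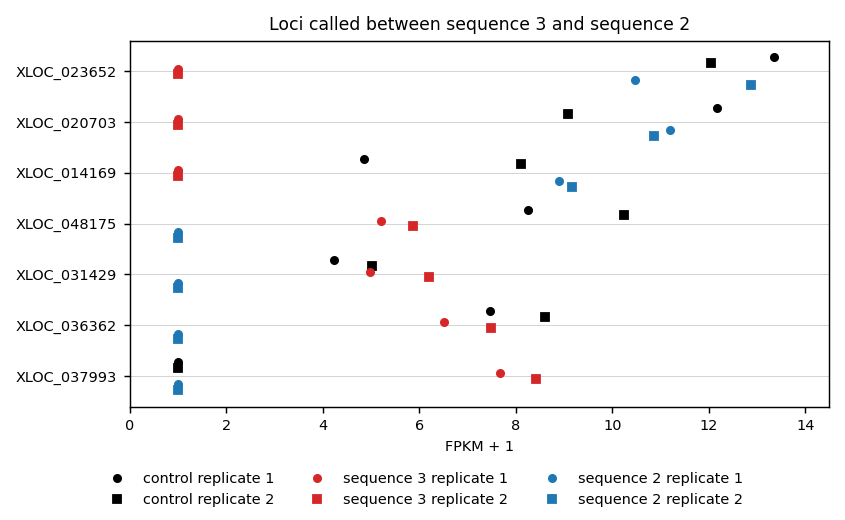
FPKM + 1 in each of the 6 libraries for the 7 loci called between sequence 3 and sequence 2, 1 point per library. At every locus both libraries of 1 sequence stand at 1, that is at a listed level of 0, with sequence 3 (red) at 0 in the top 3 loci and sequence 2 (blue) at 0 in the other 4.

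The remaining signal at the deepest falls was compared between the sequences. Both sequence 3 libraries lay above both sequence 2 libraries at 9 of the 12 largest falls, at 51 of the 139 falls of at least 4-fold (36.7%), and at 27.0% of all tested loci. At XLOC_013691 the sequence 3 libraries had 13.3 and 12 FPKM and the sequence 2 libraries 2.16 and 3.94. At XLOC_003794 they had 8.85 and 8.19 against 3.19 and 3.40. None of the 12 passed the direct test between the sequences, with adjusted p values from limma between 0.0571 and 1.00, so a difference at these loci was not shown. The median log2 difference of sequence 3 from sequence 2 was 0.086 over the falls of at least 4-fold and 0.053 over all lower loci, close to the 0.071 over all tested loci. The comparison of sequence 2 with control uses the same control libraries, and its median log2 fold change over the 261 lower loci was -2.10, beside -2.16 for sequence 3. The log2 difference was 1.79 (standard error 0.219) at XLOC_013691 and 1.15 (standard error 0.107) at XLOC_003794.

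The sequence 3 replicates agreed at most called loci. The median absolute log2 difference between them was 0.158 over the 261 lower and 0.177 over the 196 higher loci, against 0.245 over all tested loci, and close replicates are part of what makes a locus pass the test. More than 1 on the log2 scale separated them at 6 lower and 2 higher loci. The widest gap, 2.24, was at XLOC_003941, followed by 1.92 at XLOC_014003 (ENSRNOG00000007002), on chromosome 14 from 84487019 to 84502284, with 0 in both controls and 23.6 and 5.52 FPKM with sequence 3. The call of XLOC_014003 (adjusted p = 0.0308 from limma) was lost without either control, with adjusted p values from limma of 0.219 and 0.179. On chromosome 4, XLOC_032536 (no Ensembl ID, from 28343132 to 28351048), next to XLOC_032535, had 121 and 72.3 FPKM in the controls and, with sequence 3, 5 FPKM in replicate 1 and less in replicate 2, 1.49 apart on the log2 scale. Its adjusted p from limma was 0.00666, and 0.0975 and 0.0656 without control replicate 1 and 2. Both loci lay below both controls in either replicate, as did all 261 lower loci, so this adds no separate evidence on their direction.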

How the data were processed

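RNA-seq of libraries described as VSMCs was analysed in 2 libraries of sequence 3, 2 control libraries and 2 libraries of sequence 2. Each library has its own table, in which the authors deposited the FPKM of starts, ends and splicing events of transcripts. Per the submitters' processing notes, the tools were HISAT2 2.0.1, HTSeq 0.6.1, StringTie 1.0.4, Trimmomatic 0.30, SAMtools 0.1.18 and bcl2fastq 2.17.1.14 (their roles are not stated). Since the deposited FPKM come without counts, depth is unknown, and intervals for counting error could not be made. The genome build, annotation release, strand setting and event caller were not given in the sources used here.

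Repeated event numbers were dropped, starts and ends were summed per locus, and the larger sum was the level. An unlisted locus was set to 0, which can be a failed estimate. Loci reaching an FPKM of 1 in 2 or more of the 4 compared libraries were taken to log2(FPKM + 1). R 4.3.3 ran limma 3.58.1 on them, using its mean-variance trend, a mean per group for the 3 groups and Benjamini-Hochberg adjustment over all tested loci. Folds on this scale understate the change of low loci. The fit was also run on simulated data with normal noise, the spread of the same fit and changes planted only at the more abundant loci. That run did not model why a locus is unlisted or has starts without ends, so it does not bear on such loci. Tables were made with Python 3.11.15 and pandas 2.3.3.

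The loci, lists and settings were chosen with earlier results of these data known. The naming rule took the 12 largest falls and rises with an Ensembl ID, the 5 widest gaps between the sequence 3 libraries and the loci called between the sequences, or only the first 2 in each direction when no table pairs IDs with symbols, as here. The gene lists, the markers and the promoter motifs could not be used for the same reason.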

Additional observations from a re-analysis of the deposited data

Results flagged for a closer look

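The effect of sequence 3 differed from that of sequence 2 by limma at 7 loci. The log2 difference of sequence 3 from sequence 2 was -3.54 at XLOC_023652, -3.46 at XLOC_020703 and -3.17 at XLOC_014169. It was 3.01 at XLOC_037993, 2.80 at XLOC_036362, 2.47 at XLOC_048175 and 2.47 at XLOC_031429. In each case the libraries of 1 sequence were listed at 0.

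At 1 further locus the sequences lay on opposite sides of both controls, and this difference did not pass the direct test. XLOC_026689 (ENSRNOG00000000411), on chromosome 20 from 33557052 to 33584010, had 18.7 and 19.2 FPKM in the controls, 12.2 and 9.87 with sequence 3, and 21.4 and 21 with sequence 2. Its log2 fold change with sequence 3 against control was -0.74 (adjusted p = 0.0431 from limma), and the adjusted p from limma between the sequences was 0.211.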

How the results depend on the processing

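All counts are calls of limma, and the cause of each change was not tested unless the setting itself shows it. Leaving out 1 library gave 138 to 316 lower and 31 to 226 higher loci with sequence 3 and 0 to 10 between the sequences. There the lone library of a group borrows its spread from the other groups. With only the 4 libraries of the comparison 74 loci were higher. The labels do not say whether equal replicate numbers mark pairs. The correlation over loci of the replicate differences was 0.195 between control and sequence 3 and -0.114 between control and sequence 2. Between the sequences it was -0.093, and with 1 difference per group these values cannot decide it. With the replicate block 97 loci were higher and 3 differed between the sequences. At an adjusted p under 0.01 there were 166 lower, 46 higher and 0 between the sequences, and at an unadjusted p under 0.05 there were 698, 1683 and 554, where loci with no change can also pass. Over loci listed in all 4 libraries, which drops loci that fell to 0, 86 fell and 7 rose by at least 4-fold, 34 members of the runs were called and 3 loci differed between the sequences. With a pseudocount of 0.1, 13 loci differed between the sequences and rises of at least 4-fold numbered 23, and with a pseudocount of 0.5, 11 differed. Without a filter 4 differed, and with summed ends 4 differed. With summed ends XLOC_003497 was lower with sequence 3, at a log2 fold change of -2.19. The share of lower among called loci was 57.1%, and 81.2% and 82.6% without control replicate 1 and 2, 58.7% after quantile normalization and 61.8% after scaling to the same median, which left a median log2 change of 0.0565 and 0.0758 over all loci. The share of lower among called loci was 50.9% over loci listed in all 4 libraries, with 198 lower and 191 higher. It was 52.9% over loci of an FPKM of 5 or more in at least 2 of the 4 libraries, and 29.3% at an unadjusted p under 0.05. FPKM alone give no depth, so its limits were not assessed.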
